A study of Salmo salar with 9 samples.

Results

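Chromaffin cells make and release the catecholamines adrenaline and noradrenaline. Their genes were searched for in head kidneys of Atlantic salmon by the words of the deposited contig descriptions. A contig is an assembled transcript sequence, and its description names its closest database entry, often a gene of another species. The 7 names searched were Tyrosine 3-monooxygenase, Dopamine beta-hydroxylase, Phenylethanolamine N-methyltransferase, Aromatic-L-amino-acid decarboxylase, Chromogranin-A, Secretogranin and Synaptic vesicular amine transporter. A contig counted as a member when it had at least 20 counts over the 9 fish. Of 87600 de novo assembled contigs, 7 met this rule. They were 3 contigs of tyrosine 3-monooxygenase (tyrosine hydroxylase, TH), 1 contig of phenylethanolamine N-methyltransferase (PNMT) and 3 contigs of 14-3-3 proteins, whose full name, tyrosine 3-monooxygenase/tryptophan 5-monooxygenase activation protein, contains the words searched for. The label of a chromaffin cell gene set was therefore borne out for 4 contigs of 2 genes only, and the levels below are described as those of TH and PNMT, with the 14-3-3 contigs kept apart.

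In teleost fish, chromaffin cells are not gathered in an adrenal medulla but lie in the head kidney along the cardinal vein, among the steroid-producing interrenal cells. TH turns tyrosine into L-DOPA and is the rate-limiting step of the pathway, the decarboxylase and dopamine beta-hydroxylase then give dopamine and noradrenaline, and PNMT methylates noradrenaline to adrenaline. The amine transporter loads the products into vesicles that also hold chromogranins and secretogranins. The 14-3-3 proteins bind phosphorylated partners, TH among them, but are made by nearly every cell type, so they mark no chromaffin cells.

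Head kidney RNA was sequenced from 9 fish, 3 per diet and 1 per tank. SW1 fish had been fed for 42 days with 10% of the brown alga Laminaria digitata and SW2 fish with 10% of Oceanfeed, a commercial seaweed blend, while the fishmeal control (FMC) diet held no seaweed. All 9 fish were injected intraperitoneally with Escherichia coli lipopolysaccharide (LPS) at 6 mg per kg and sampled 68 to 70 h later. No fish without LPS was among them, so diets were compared among injected fish and the response to LPS itself was not measured. The question asked of each comparison was whether the chromaffin cell transcripts differed with the seaweed diets.

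The deposited counts per fish summed to 8892018 to 12228633 in SW1, 9330126 to 11236432 in SW2 and 8259299 to 11904385 in FMC. A principal component analysis split SW1 fish 1 and FMC fish 2 from the rest along its leading axis (32.7% of the variance). Both were rich in hemoglobin counts (0.711% of the library in SW1 fish 1 and 2.63% in FMC fish 2), where no other fish exceeded 0.282%. Levels below are CPM, counts per 1000000 counts of a library scaled by TMM (trimmed mean of M-values), summed over the contigs of a gene. Contig lengths were not used here, so levels are compared between fish and never between genes. In a bulk sample, fewer chromaffin cells and less RNA per cell cannot be told apart.

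For 5 of the 7 names no description matched in the de novo reference. Dopamine beta-hydroxylase, the decarboxylase, chromogranin-A, secretogranin and the vesicular amine transporter thus have no value here. Of the 87600 contigs, 46705 (53.3%) had no description that names a protein, and they held 23.4% of all counts, so transcripts of these genes can be among them. In the S. salar reference from NCBI, the other deposited table, only 3 secretogranin-2 sequences matched among these 5 names, with 3 counts in all 9 fish together, and neither TH nor PNMT was matched.

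PNMT, the last enzyme of adrenaline synthesis, was the better measured of the pair, with 460 counts on contig 57242 (best match the human enzyme). Its level was 10.2, 2.01 and 3.40 CPM in the 3 SW1 fish and 10.9, 3.63 and 4.62 CPM in the 3 SW2 fish, against 1.25, 4.39 and 2.24 CPM in the 3 FMC fish. One fish of each seaweed diet stood far above all others, the remaining SW2 fish lay near the highest FMC fish, and the remaining SW1 fish lay within the FMC range. The means were 5.19 ± 4.36 CPM in SW1 and 6.38 ± 3.94 CPM in SW2, against 2.63 ± 1.61 CPM in FMC (SD, n = 3 each), so the SD of SW1 was nearly as large as its mean. Fish of the same diet differed by more than counting error: the exact Poisson interval (95%) was 8.59 to 11.9 CPM in SW1 fish 1 and 1.12 to 3.31 CPM in SW1 fish 2. These intervals cover counting error only. From the lowest to the highest of the 9 fish, PNMT spanned a ratio of 8.75.

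**Figure D1:**
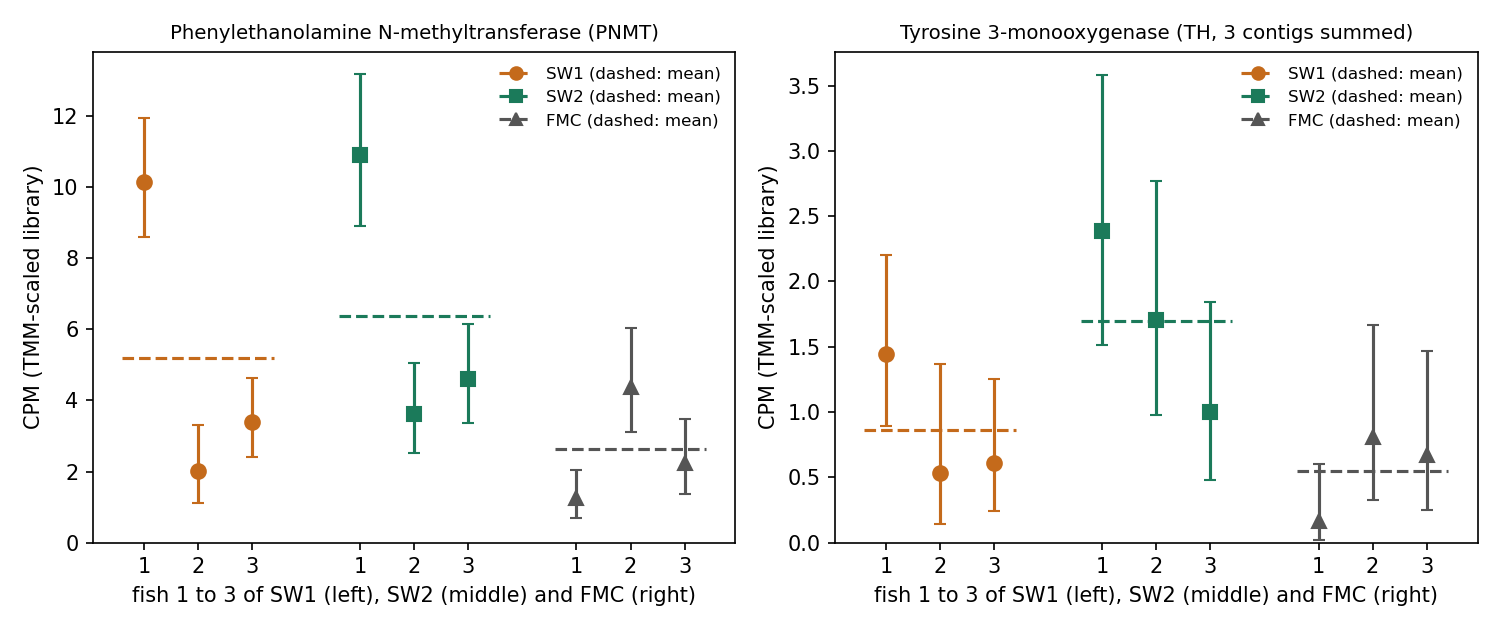
Level of PNMT (left panel) and of TH summed over 3 contigs (right panel) in each fish, in CPM of the TMM-scaled library. Points are single fish, bars are exact Poisson intervals (95%) for counting error only and dashed lines are diet means. For PNMT, SW1 fish 1 (10.2 CPM) and SW2 fish 1 (10.9 CPM) lie far above the other 7 fish, and for TH all 3 SW2 fish lie above all 3 FMC fish.

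TH was scarce, with 96 counts on 3 contigs among the 91322151 counts of the 9 fish. Summed over the 3 contigs it was 1.44, 0.535 and 0.610 CPM in SW1 and 2.39, 1.71 and 1.00 CPM in SW2, against 0.166, 0.809 and 0.673 CPM in FMC. Every SW2 fish was above every FMC fish, whereas only SW1 fish 1 was above the FMC range. The means were 0.862 ± 0.503 CPM in SW1 and 1.70 ± 0.692 CPM in SW2, against 0.549 ± 0.339 CPM in FMC (SD, n = 3 each). Depth limits these values: FMC fish 1 had 2 TH counts, below the 3 counts (0.249 CPM in that fish) taken here as the floor of detection. The Poisson interval of the lowest SW2 fish (0.481 to 1.85 CPM) also overlapped that of the highest FMC fish (0.325 to 1.67 CPM), so the gap between the groups was within the counting error of its nearest fish.

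The 3 TH contigs did not share their counts in the same way among the fish. Contig 87457 had 2, 2 and 1 counts in SW1 and 10, 8 and 4 counts in SW2, against 0, 2 and 2 counts in FMC. Its SW2 fish were above all FMC fish, as in 5.69% of all contigs, and above all SW1 fish, as in 6.74%. The gap was 4 counts against 2 at its nearest, and counts this small carry wide counting error. Contig 87250, with the most TH counts (37), had 14, 0 and 2 counts in SW1 and 9, 3 and 4 counts in SW2, against 0, 4 and 1 counts in FMC, so that 14 of its 16 SW1 counts came from fish 1. Contig 76425 had 5, 2 and 4 counts in SW1 and 4, 5 and 2 counts in SW2, against 2, 1 and 3 counts in FMC, and its diets overlapped. All 3 were matched to the same eel protein, and whether they are pieces of 1 transcript, alleles or the copies of a duplicated gene was not tested.

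**Figure D2:**
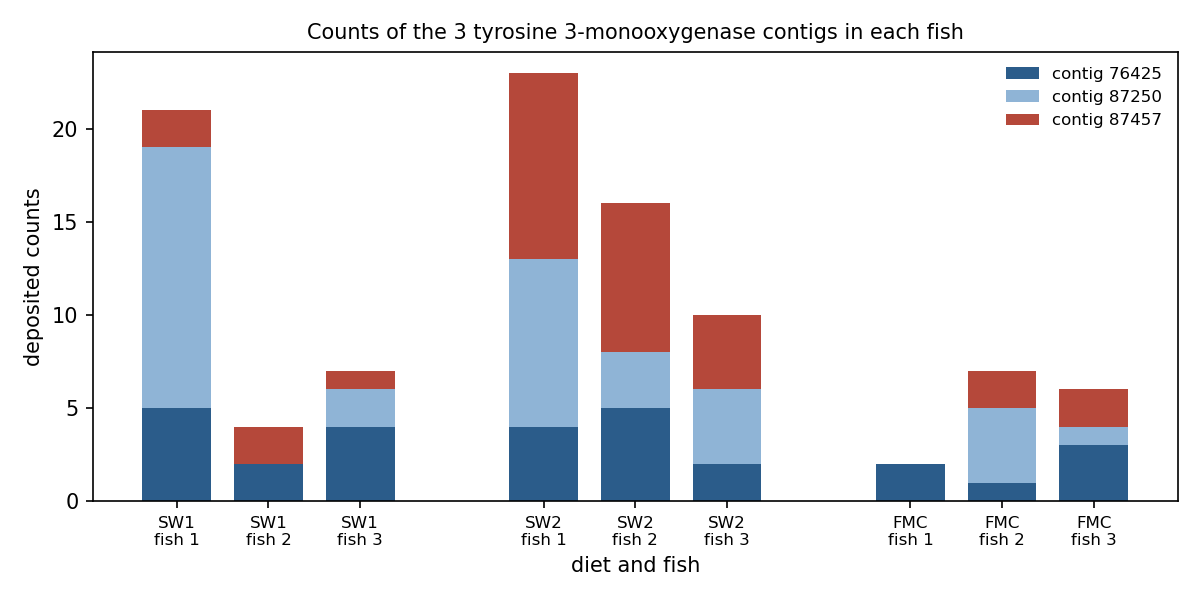
Deposited counts of the 3 TH contigs in each fish, stacked, with SW1 and SW2 fish left of the FMC fish. Contig 87457 (red) has 4 to 10 counts in the SW2 fish and 0 to 2 counts in the other 6 fish, and contig 87250 (light blue) is highest in SW1 fish 1 with 14 counts.

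In SW1 vs. FMC, no member passed the test. With edgeR's quasi-likelihood test and Benjamini-Hochberg adjustment over all contigs, 0 of the 6 members tested had an adjusted p under 0.05, and 0 had an unadjusted p under 0.05, where 0.00343% and 1.68% of all contigs did. DESeq2 and limma voom with quality weights also called 0 of 6, but DESeq2 gave no adjusted p for TH contig 87250, which it could not call. All 3 enzyme contigs tested had log2 fold changes above 0, as had 48.3% of all contigs. PNMT contig 57242 had a log2 fold change of 1.01 (SE 0.588, edgeR adjusted p = 1.00), with 1 of 3 SW1 fish above all FMC fish. TH contig 87250 had a log2 fold change of 1.23 (SE 1.15, edgeR adjusted p = 1.00), and TH contig 87457, with 9 counts over the 6 fish, was below the minimum of 10 counts for a test. The summed TH level differed by 0.63 on the log2(CPM + 0.1) scale (exact two-sided permutation p = 0.60, n = 3 each) and that of PNMT by 0.80 (exact permutation p = 0.50, n = 3 each). The smallest p that 3 fish against 3 allow is 0.10. These differences rested on single fish. Without SW1 fish 1 the log2 fold change of PNMT was 0.089, and the summed levels differed by 0.17 for PNMT and 0.23 for TH. Without FMC fish 2 the log2 fold changes were 1.61 for PNMT and 2.88 for TH contig 87250, and the summed levels differed by 1.25 for PNMT and 0.97 for TH. Without FMC fish 1 summed TH differed by 0.079. SW1 fish 1 also had more hemoglobin counts than the other SW1 fish and the highest uromodulin, a kidney tubule marker, at 162 CPM against 42.6 to 128 CPM in the other 8 fish. The part of either in these values was not tested.

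In SW2 vs. FMC all 4 enzyme contigs had log2 fold changes above 0, as had 50.3% of all contigs, and again no member passed. With edgeR's quasi-likelihood test, 0 of 7 members had an adjusted p under 0.05 (0% of all contigs), and 2 of 7 had an unadjusted p under 0.05 with a higher level, where 2.39% of all contigs did. These 2 were TH contig 87457, with a log2 fold change of 2.36 (SE 0.805, edgeR adjusted p = 0.816), and PNMT contig 57242, with 1.31 (SE 0.50, edgeR adjusted p = 0.819). TH contig 87250 had a log2 fold change of 1.60 (SE 0.908, edgeR adjusted p = 0.866). DESeq2 and limma voom with quality weights also called 0 of 7, but DESeq2 again gave no adjusted p for TH contig 87250. The summed TH level differed by 1.58 on the log2(CPM + 0.1) scale, with 3 of 3 SW2 fish above all FMC fish, and its exact permutation p of 0.10 is the smallest that n = 3 against 3 can give. Of the members, TH contig 87457 alone had groups that did not overlap in the higher direction, as had 5.69% of all contigs. The summed PNMT level differed by 1.26 (exact permutation p = 0.20, n = 3 each), with 2 of 3 SW2 fish above all FMC fish and FMC fish 2, the fish with the most hemoglobin counts, among the SW2 values. Without FMC fish 2 the log2 fold change of PNMT was 1.91 (edgeR adjusted p = 0.213) and that of TH contig 87250 was 3.22 (edgeR adjusted p = 0.442), and without SW2 fish 1 that of PNMT was 0.67. With each fish left out in turn, summed TH differed by 1.02 to 1.91 and summed PNMT by 0.79 to 1.70.

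The mean of both seaweed diets was compared with FMC in a fit of all 9 fish. With edgeR's quasi-likelihood test, 0 of 7 members had an adjusted p under 0.05 (0% of all contigs), and 1 of 7, PNMT, had an unadjusted p under 0.05 with a higher level, where 1.39% of all contigs did. DESeq2 and limma voom again called 0 of 7. All 4 enzyme contigs had log2 fold changes above 0, as had 47.9% of all contigs. PNMT had a log2 fold change of 1.17 (SE 0.539, edgeR adjusted p = 1.00), with 5 of 6 seaweed fish above the median FMC fish. TH contig 87250 had 1.43 (SE 0.978) and TH contig 87457 had 1.24 (SE 0.823), both with an edgeR adjusted p of 1.00. The summed levels differed by 1.10 for TH (exact permutation p = 0.131, n = 6 and 3) and by 1.03 for PNMT (exact permutation p = 0.155, n = 6 and 3), where the smallest p possible is 0.0119. With each fish left out in turn, the log2 fold change ran between 0.71 and 1.77 for PNMT, 0.46 and 3.06 for TH contig 87250 and 0.57 and 1.70 for TH contig 87457, and the difference in summed TH between 0.55 and 1.44. For PNMT and contig 87250 the lowest value was that without SW1 fish 1 and the highest that without FMC fish 2. No member contig had seaweed fish all above the FMC fish, as 0.758% of all contigs had. The 3 comparisons with FMC share the same 3 FMC fish, so their values are not independent of each other.

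In SW2 vs. SW1, 1 TH contig stood out before adjustment. With edgeR's quasi-likelihood test, 0 of 7 members had an adjusted p under 0.05, against 0.00114% of all contigs, and 1 of 7 had an unadjusted p under 0.05 with a higher level, where 2.05% of all contigs did. This was TH contig 87457, with a log2 fold change of 2.24 (SE 0.773, edgeR adjusted p = 0.858) and all 3 SW2 fish above all SW1 fish, as in 6.74% of all contigs. With limma voom and quality weights this contig did pass (log2 fold change 2.55, adjusted p = 0.0180), in a fit that called 6159 contigs where edgeR called 1, while DESeq2 called 0 of 7 members. PNMT had a log2 fold change of 0.26 (SE 0.565, edgeR adjusted p = 0.973), and TH contig 87250 of 0.34 (SE 0.917, edgeR adjusted p = 0.980). Summed TH differed by 0.95 (exact permutation p = 0.20, n = 3 each), with 2 of 3 SW2 fish above all SW1 fish. Without SW1 fish 1 the log2 fold change of PNMT was 1.21 and that of TH contig 87250 was 2.28, while without SW2 fish 1 they were -0.34 and -0.23, so single fish set the sign of both.

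**Figure D3:**
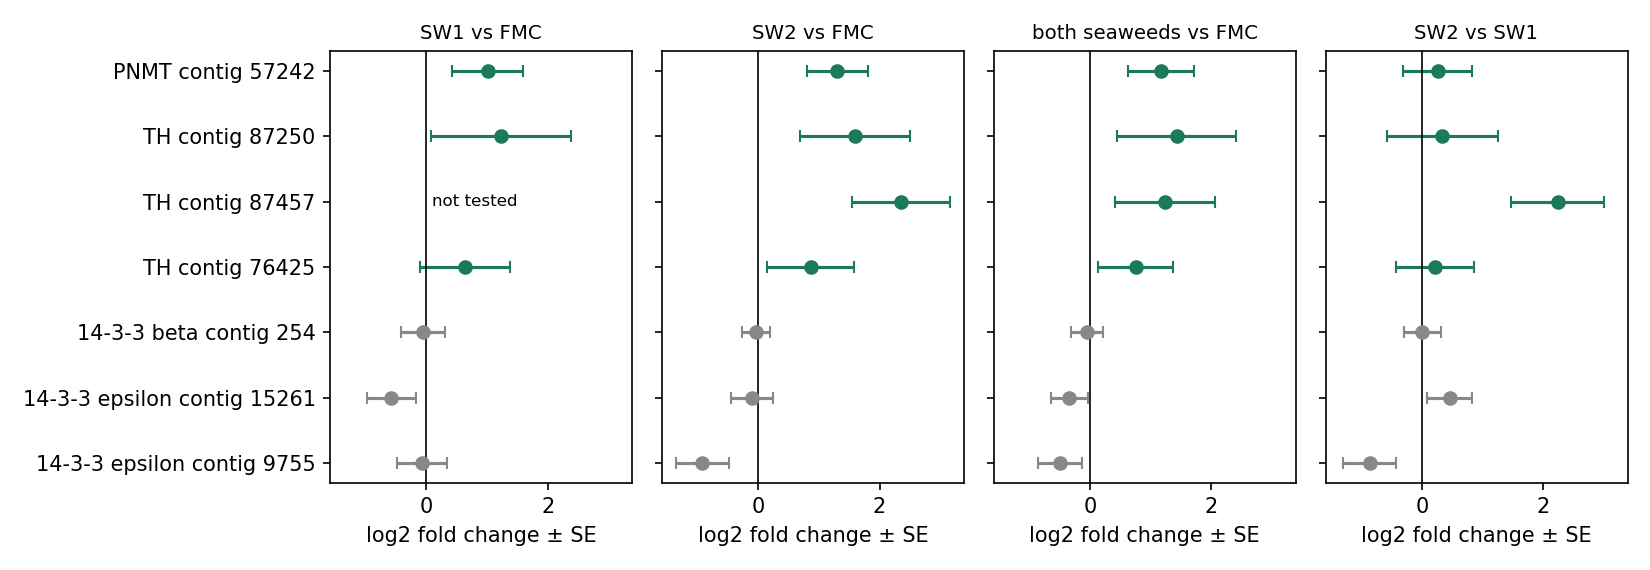
Log2 fold change of the 7 member contigs in the 4 comparisons, from edgeR, with bars of 1 SE worked back from the test statistic. Green points are TH and PNMT contigs and grey points are 14-3-3 contigs. All enzyme contigs that were tested lie above 0 in the 3 comparisons with FMC, and none has an adjusted p under 0.05 in edgeR.

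Of the 14-3-3 contigs, which the words of the rule also caught, the one with the most counts varied less from fish to fish than the enzymes. The 14-3-3 beta contig 254, with 3800 counts, was at 31.9, 61.4 and 31.8 CPM in SW1 and 36.9, 46.8 and 41.9 CPM in SW2, against 49.9, 32.9 and 46.3 CPM in FMC. Its lowest and highest fish differed by a ratio of 1.93, compared with 8.75 for PNMT, and the 3 diets overlapped. For 14-3-3 epsilon contig 9755 (136 counts) the ratio was 4.21, near the 4.61 of TH contig 76425, and low counts widen such ratios. The 14-3-3 beta sequence of the NCBI reference varied more than contig 254. It had 53, 31 and 32 raw counts in SW1 and 9, 35 and 0 in SW2, against 45, 41 and 31 in FMC. The log2 fold changes of contig 254 were -0.055 in SW1 vs. FMC, -0.042 in SW2 vs. FMC, -0.046 for both seaweeds and 0.0090 in SW2 vs. SW1 (SE 0.232 to 0.360, edgeR adjusted p = 0.990 to 1.00). The 2 contigs of 14-3-3 epsilon summed to 3.29, 3.21 and 2.35 CPM in SW1 and 2.80, 1.92 and 3.21 CPM in SW2, against 2.58, 4.16 and 4.26 CPM in FMC. No 14-3-3 member passed in edgeR in any comparison, with log2 fold changes of contig 15261 between -0.58 in SW1 vs. FMC and 0.46 in SW2 vs. SW1 and of contig 9755 between -0.92 in SW2 vs. FMC and -0.075 in SW1 vs. FMC. In SW2 vs. SW1 contig 9755 had groups that did not overlap, with SW2 at 0.533 to 1.30 CPM and SW1 at 1.31 to 2.13 CPM, lower in SW2 as in 6.90% of all contigs.

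Across the 9 fish TH and PNMT rose and fell together, although their contigs were annotated apart. The order of the fish was nearly the same for both enzymes, with SW2 fish 1 highest and FMC fish 1 lowest. On the log2(CPM + 0.1) scale Pearson's r was 0.87 (exact permutation p = 0.00226, adjusted 0.0181) and Spearman's rho was 0.88 (exact permutation p = 0.00308, adjusted 0.0246), over n = 9 fish, with Benjamini-Hochberg adjustment over 8 pairs. The relation was also present in the deviations from the diet means, with r = 0.84. Without the 2 fish farthest from the median TH level, SW2 fish 1 and FMC fish 1, r was 0.68 over 7 fish (exact permutation p = 0.0875). Spearman's rho was 0.75 in the same 7 fish (exact permutation p = 0.0663), so the relation no longer passed. Leaving out the extremes of TH also narrows its range, so this drop cannot show how far the relation rested on those fish. Without SW1 fish 1 and FMC fish 2, the fish richest in hemoglobin, r was 0.90 (exact permutation p = 0.00853, n = 7). The number of PNMT counts per TH count was 7.05, 3.75 and 5.57 in SW1 and 4.57, 2.13 and 4.60 in SW2, against 5.43 and 3.33 in FMC fish 2 and 3. It is not read for FMC fish 1, whose TH counts lay below the floor of detection. The diets overlapped in this ratio over the other 8 fish, some of which had few TH counts.

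**Figure D4:**
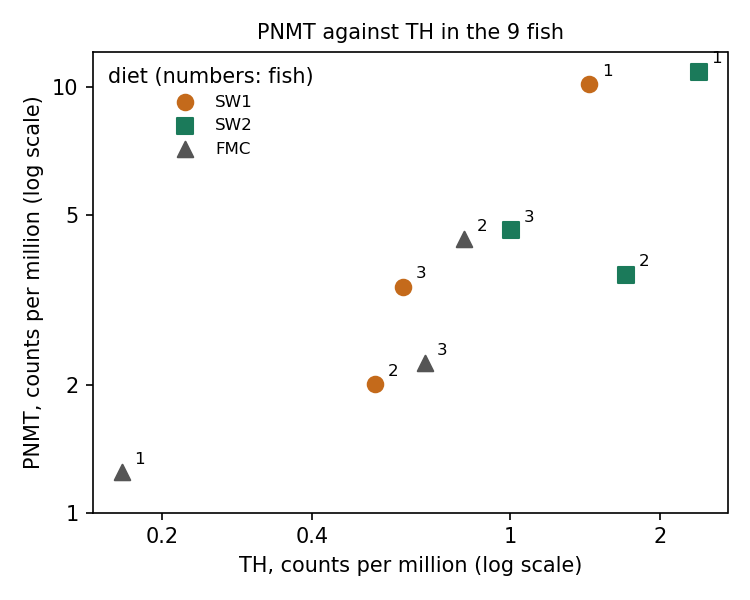
PNMT against TH (3 contigs summed) in the 9 fish, in CPM on log axes. Symbols mark the diets and numbers the fish of a diet. FMC fish 1 is lowest and SW2 fish 1 is highest on both axes (Pearson's r = 0.87 on the log2(CPM + 0.1) scale).

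No relation of either enzyme with 14-3-3 epsilon passed (r = -0.11 for TH and 0.047 for PNMT, exact permutation p = 0.789 and 0.904, n = 9). PNMT and 14-3-3 beta had r = -0.69 (exact permutation p = 0.0415, adjusted 0.166), which did not pass after adjustment. The interrenal steroid synthesis contigs, from the cells that lie beside chromaffin cells, had r = 0.58 with TH and 0.49 with PNMT (exact permutation p = 0.104 and 0.180, n = 9). Without SW2 fish 1 and FMC fish 1, r turned to -0.22 and -0.13. Leaving out these extremes of both enzymes narrows their range, so the change cannot show how far the relation rested on those fish. In the deviations from the diet means the interrenal contigs had r = 0.26 with TH and 0.23 with PNMT. Summed over 17 contigs they were at 1323 to 2518 CPM in SW1 and 1947 to 4391 CPM in SW2, against 569.8 to 2655 CPM in FMC, and 7 of 17 had an unadjusted p under 0.05 in SW2 vs. FMC, all higher, where 2.39% of all contigs did, with 0 passing adjustment in edgeR. FMC fish 1 was thus the lowest fish for TH, PNMT and the interrenal contigs alike, whereas the highest fish differed, SW2 fish 1 for the enzymes and SW2 fish 3 for the interrenal contigs. Whether the piece of head kidney taken from each fish held different amounts of this tissue was not tested.

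The contigs whose pattern over the 9 fish was most like the mean of TH and PNMT were named by rank among 36769 contigs with at least 50 counts and a protein name, of which 0.443% had an r above 0.80. As the search picks the highest of many values over only 9 fish, these r are a description and carry no p. The highest was a contig of focal adhesion kinase 1, a tyrosine kinase of cell attachment sites, with r = 0.97 on 70 counts. It was followed by semaphorin-4B, a membrane-bound guidance molecule, with r = 0.93 on 3244 counts. Ranks 5 and 9 were both contigs of src substrate cortactin, an actin-binding protein (r = 0.92 and 0.90). The other 6 were a glycoprotein N-acetylglucosaminyltransferase, the ubiquitin ligase MARCH5, FAM46A, the Vam6/Vps39-like vesicle fusion protein, a Ty3-like transposon and insulin-like growth factor binding protein 5, with r of 0.90 to 0.93. None of the 10 came from the lists of chromaffin secretion, tetrahydrobiopterin supply or nerve markers. These lists held only 9, 12 and 10 contigs with an r, so few that their absence from the top 10 says nothing about them.

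Other genes of a chromaffin cell were taken from word lists. The secretion list held 14 contigs, of peptidyl-glycine alpha-amidating monooxygenase, carboxypeptidase E, cytochrome b561, syntaxin-1B, complexin-1 and nicotinic receptor subunits, most of which other cells also make. In SW2 vs. FMC, 0 of 14 passed adjustment in edgeR and 2 of 14 had an unadjusted p under 0.05, both higher, where 2.39% of all contigs did, with a median log2 fold change of 0.40, against 0.0030 over all contigs tested. In SW1 vs. FMC 0 of 14 passed and 1 of 14 had an unadjusted p under 0.05, against 1.68% of all contigs (median 0.30 against -0.015 over all contigs). The summed level of the list was 97.3 to 131 CPM in SW1 and 104 to 120 CPM in SW2, against 99.6 to 106 CPM in FMC, and the diets overlapped. This sum mainly reflects syntaxin-1B contig 15485, the complexin-1 contig and the amidating monooxygenase contig, with 4594, 2304 and 1737 counts. No other contig of the list had more than 200 counts, so the sum says little of the others. Cytochrome b561, which passes electrons into the vesicle for dopamine beta-hydroxylase, and a syntaxin-1B contig had the highest r of the list with the mean of TH and PNMT (0.80 for each). Both were just above 0.80, as were 0.443% of all contigs compared. The list did not move as a whole with the enzymes. Of its 9 contigs with at least 50 counts, 6 had r above 0 and 3 below, among them the syntaxin-1B contig with the most counts, 15485 (r = -0.42), and syntaxin-1B contig 53659 (r = -0.52). The median r of this list was 0.26, against 0.0078 over all contigs compared. It was lower than that of the interrenal list (0.52) and of the macrophage list (0.46), so likeness to the enzymes was not particular to it. This cytochrome b561 contig, 51668, was at 1.92, 1.47 and 0.958 CPM in SW1 and 2.70, 1.49 and 2.01 CPM in SW2, against 0.997, 1.16 and 1.12 CPM in FMC. All 3 SW2 fish were above all FMC fish, as in 5.69% of all contigs (log2 fold change 0.92, SE 0.368, edgeR adjusted p = 0.822).

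The supply of tetrahydrobiopterin, the cofactor of TH, was covered by 12 contigs of 6-pyruvoyl tetrahydrobiopterin synthase, sepiapterin reductase, dihydropteridine reductase and pterin-4-alpha-carbinolamine dehydratase. In all 4 comparisons 0 of 12 had an unadjusted p under 0.05 in edgeR. Of all contigs, 1.68% did in SW1 vs. FMC, and in SW2 vs. FMC 2.39% did with a higher and 3.63% with a lower level. A count of 0 among so few contigs is near these shares. The median log2 fold change was 0.024 in SW1 vs. FMC and 0.037 in SW2 vs. FMC. Their summed level was 89.2 to 172 CPM in SW1 and 130 to 143 CPM in SW2, against 122 to 136 CPM in FMC. From fish to fish the list did not rise with the enzymes. Of its 12 contigs, 2 had r above 0 with the mean of TH and PNMT and 10 below. The median r was -0.30 and the lowest -0.69, against a median of 0.0078 over all contigs compared. Of the enzymes that break catecholamines down, 4 contigs were measured, and 0 of 4 had an unadjusted p under 0.05 in any comparison, which is again near the shares of all contigs. Catechol O-methyltransferase, which inactivates catecholamines by methylation, was at 53.7, 37.4 and 43.6 CPM in SW1 and 40.4, 41.2 and 45.0 CPM in SW2, against 31.7, 52.6 and 37.9 CPM in FMC. Its highest fish were SW1 fish 1 and FMC fish 2, and the same 2 fish were highest for the larger contig of monoamine oxidase (6.18 and 7.74 CPM, against 2.27 to 3.37 CPM in the other 7 fish).

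Receptors for catecholamines were covered by 12 contigs of alpha-2 and beta adrenergic receptors. In SW2 vs. FMC 0 of 12 passed adjustment in edgeR and 3 of 12 had an unadjusted p under 0.05, all lower, where 3.63% of all contigs did, with a median log2 fold change of -0.091. These 3 followed 1 fish. The beta-1 receptor contig was at 5.08, 2.67 and 1.92 CPM in SW1 and 3.01, 2.35 and 4.21 CPM in SW2, against 2.99, 23.5 and 2.80 CPM in FMC. FMC fish 2 alone was far above the others, and it was also highest for the other 2, beta-4C receptor contigs 11207 and 73623 (14.9 and 10.1 CPM, against at most 2.77 and 1.92 CPM in the other 8 fish). The remaining 3 beta-4C contigs differed among themselves, as FMC fish 2 was highest for contig 11206 (16.2 CPM), lowest for contig 33422 (0.116 CPM) and below SW1 fish 1 for contig 43084 (8.72 CPM in SW1 fish 1, against 5.78 CPM in FMC fish 2). The 12 contigs of red blood cell genes summed to 30396 CPM in that fish, against 2049 to 7459 CPM in the other 8 fish, and the part of red blood cells in the receptor values was not tested. The alpha-2A receptor-like contig did not follow this pattern, with 5.15, 3.74 and 4.79 CPM in SW1 and 5.50, 2.88 and 6.42 CPM in SW2, against 1.16, 5.32 and 2.69 CPM in FMC. FMC fish 1 was lowest for this receptor too, and the contig had r = 0.74 with the mean of TH and PNMT, the highest of 10 receptor contigs whose median r was 0.14.

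**Figure D5:**
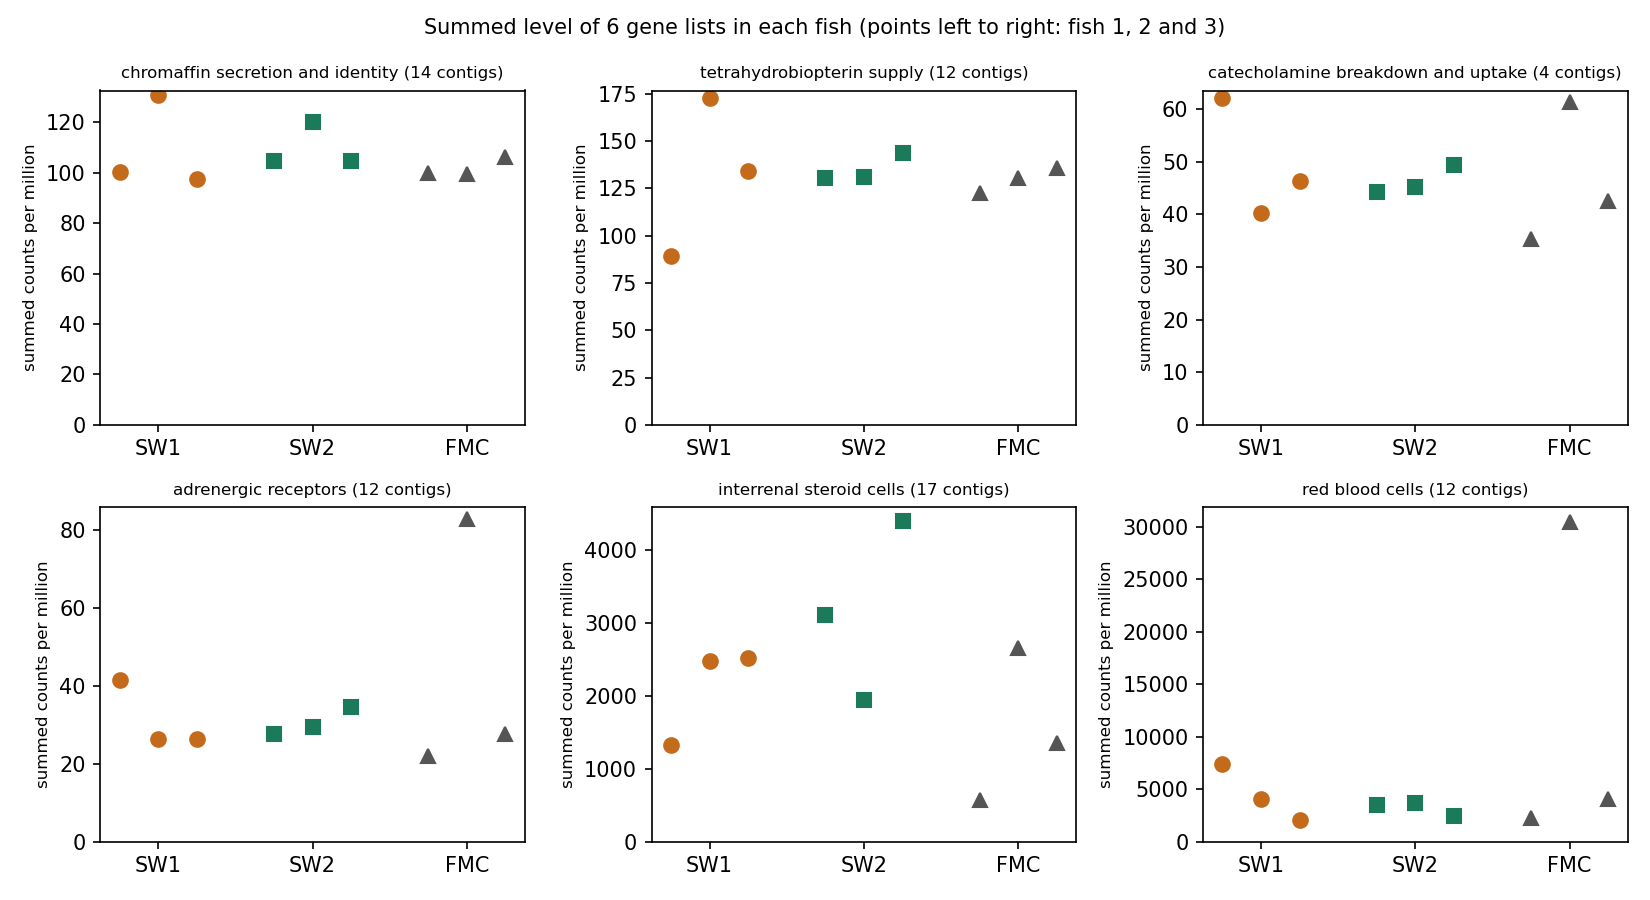
Summed level of 6 gene lists in each fish, in CPM, with the fish of SW1 and SW2 left of those of FMC and each panel on its own scale from 0. FMC fish 2 is highest for adrenergic receptors (82.6 CPM) and for red blood cell genes (30396 CPM), and FMC fish 1 is lowest for interrenal steroid cells (569.8 CPM).

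Nerve cells can also make TH, and their markers were taken from a list of tubulin beta-3, neurofilament, alpha-internexin, stathmin-2 and ELAV-like 4 contigs. Of 10 nerve contigs, 0 passed adjustment in edgeR in SW2 vs. FMC and 1 had an unadjusted p under 0.05, higher in SW2 as in 2.39% of all contigs, with a median log2 fold change of -0.093. Their sum was 91.5 to 115 CPM in SW1 and 90.7 to 100.3 CPM in SW2, against 79.1 to 116 CPM in FMC. Of the 10 contigs, 3 had r above 0 with the mean of TH and PNMT and 7 below, with -0.69 for ELAV-like 4 and -0.40 for stathmin-2. The highest r was 0.72, for contig 28784 of the neuronal filament alpha-internexin, whose second contig, 66916, had r = -0.17. Contig 28784 was at 7.69, 9.89 and 8.97 CPM in SW1 and 23.5, 7.04 and 15.5 CPM in SW2, against 3.32, 9.82 and 4.71 CPM in FMC. SW2 fish 1 was highest and FMC fish 1 lowest, as for TH and PNMT. The glia list (4 contigs) summed to 15.9 to 22.6 CPM in SW1 and 16.5 to 19.3 CPM in SW2, against 17.6 to 20.8 CPM in FMC. TH is known from sympathetic neurons as well as from chromaffin cells, whereas PNMT is known chiefly from cells that make adrenaline.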

How the data were processed

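Head kidney RNA of 9 fish was sequenced by the authors, who aligned the reads with TopHat 2.0.5 to 87600 contigs assembled de novo (CLC bio) and to 48223 NCBI sequences, and counted them with HTSeq 0.5.3p9 after filtering with SAMtools 0.1.18. The deposited values used are raw counts per contig and fish, while the deposited DESeq columns (mean levels, fold changes and p-values) were not used. Reads that align to several similar contigs may be lost or misplaced by this counting, which was not tested.

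TMM scaling and the quasi-likelihood test of edgeR 4.0.16 (R 4.3.3) were applied to contigs with 10 or more counts in the fish compared, SW1 vs. FMC and SW2 vs. FMC with 6 fish each, and both seaweeds vs. FMC and SW2 vs. SW1 with all 9. Summed gene levels and relations across fish were compared by exact two-sided permutation tests (scipy 1.17.1) on log2(CPM + 0.1). The edgeR test gives no SE. Each SE here is the size of the log2 fold change divided by the square root of F, the test statistic. The edgeR test was tried on simulated counts for SW2 vs. FMC only, and the other steps were not tried on simulated data. Replicates are numbered in the order of the sample numbers. Fold changes are given for the contig of each gene with the most counts and for members with an unadjusted p under 0.05, and the 10 contigs most alike by Pearson's r on log2 CPM with a prior count of 2. Members and lists were chosen with earlier results of these data known, and words were struck from the lists after the descriptions had been read. The lists cover chromaffin secretion and identity, tetrahydrobiopterin supply, catecholamine breakdown and uptake, adrenergic receptors, interrenal steroid cells, nerve, glia, kidney tubule and glomerulus, red blood cells, B cells and macrophages. Alternatives were DESeq2 1.42.0, limma 3.58.1 (voom with quality weights), RLE scaling, other filters, a replicate block, CPM without TMM, a pseudocount of 1 and leaving out fish.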

Additional observations from a re-analysis of the deposited data

How the results depend on the processing

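No member had an adjusted p under 0.05 in edgeR or DESeq2 under any setting. TH contig 87250 got no adjusted p from DESeq2 in SW1 vs. FMC and SW2 vs. FMC, so it could not be called there. The log2 fold changes of PNMT and TH contigs in the comparisons with FMC stayed above 0 in all settings that tested them. TH contig 87457 was tested in only 2 settings of SW1 vs. FMC and TH contig 87250 in 12, against 16 for PNMT. Without SW1 fish 1, contig 87250 had too few counts for a test, so its sign there is not known from the fits. SW1 fish 2 and 3 had 0 and 0.174 CPM of it, against a mean of 0.191 CPM in FMC. In SW2 vs. SW1 limma voom with quality weights called TH contig 87457 (adjusted p = 0.0180, against 0.858 in edgeR). Counts of all contigs called moved widely. SW1 vs. FMC had 3 in edgeR, 28 with DESeq2, 167 with voom, 1 in a fit of all 9 fish, 0 with at least 10 counts in 3 fish and 81 without FMC fish 2 and SW1 fish 1, an alternative chosen after seeing the data. SW2 vs. FMC had 0 in edgeR, 38 with DESeq2, 151 with voom and 7 without those fish. Both seaweeds had 0, 21 with DESeq2 and 104 with voom, and SW2 vs. SW1 had 1, 34 with DESeq2, 6159 with voom and 52 without those fish. The cause was not tested.

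Same-numbered fish of 2 diets had correlations of their deviations from -0.31 to 0.18. Fish of different numbers were not set beside them, so whether the numbers pair any fish was not tested. The replicate block called 0 contigs in SW1 vs. FMC, 10 in SW2 vs. FMC, 0 for both seaweeds and 1 in SW2 vs. SW1, with 0 members among them.

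Leaving out 1 fish gave 0 to 7 contigs called in SW1 vs. FMC, 0 to 7 in SW2 vs. FMC, 0 to 2 for both seaweeds and 0 to 9 in SW2 vs. SW1. In SW2 vs. SW1 it moved PNMT between -0.34 and 1.21 and TH contig 87250 between -0.23 and 2.28 on the log2 scale, and the summed PNMT level between -0.051 and 1.09. For 14-3-3 beta contig 254 the ranges were -0.43 to 0.11 in SW1 vs. FMC, -0.19 to 0.078 in SW2 vs. FMC, -0.24 to 0.075 for both seaweeds and -0.15 to 0.41 in SW2 vs. SW1, and for 14-3-3 epsilon contig 15261 it was -0.29 to 0.033 in SW2 vs. FMC. In SW2 vs. SW1, contig 254 was at -0.0086 with DESeq2, -0.0094 with RLE scaling and -0.15 without FMC fish 2 and SW1 fish 1, which also gave 0.033 for contig 15261 in SW2 vs. FMC. The relation of TH and PNMT stayed between 0.80 and 0.94 with 1 fish left out. The NCBI reference holds no sequence matched to TH or PNMT, so that alternative was not run, and every matching de novo contig had at least 20 counts. Limits are 3 fish per diet, TH at 2 to 23 counts per fish, 5 names with no description matched and levels that rest on 1 best database match.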

Other observations

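The methyltransferase family of PNMT also holds nicotinamide N-methyltransferase and indolethylamine N-methyltransferase, which were described on 4 and 1 contigs with 24 to 78 counts each. The nicotinamide N-methyltransferase contig with the most counts, 20534, had 17, 2 and 7 counts in SW1 and 4, 6 and 5 counts in SW2, against 18, 6 and 13 counts in FMC. These are raw counts, not scaled to the library, and FMC fish 1, the lowest fish for PNMT, had 18, next to 17 in SW1 fish 1. That fish also had the most counts of contig 59010 (14). It did not for contigs 59009 and 59741, with 4 and 2 counts, against 6 counts of each in SW1 fish 1. Among the other cell types of the head kidney, B cell contigs (38) summed to 4392 to 13299 CPM in SW1 and 9527 to 10298 CPM in SW2, against 5189 to 9669 CPM in FMC, with the lowest values in SW1 fish 1 and FMC fish 2. Macrophage contigs (23) summed to 3357 to 4525 CPM in SW1 and 3837 to 4880 CPM in SW2, against 3123 to 3847 CPM in FMC, and 6 of them had an unadjusted p under 0.05 in SW2 vs. FMC, all higher, where 2.39% of all contigs did, with 0 passing adjustment in edgeR. The 3 kidney tubule and glomerulus contigs, markers of neighbouring tissue, summed to 104 to 167 CPM in SW1 and 66.8 to 94.2 CPM in SW2, against 47.0 to 77.9 CPM in FMC. This sum is nearly all uromodulin contig 6827, with 8648 counts. For that contig SW1 and FMC did not overlap, but no share of all contigs is set beside this gap, so it is not read as a result. SW1 and FMC overlapped for uromodulin contig 40374 (255 counts) and for contig 51611 (62 counts).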
